A study of Mus musculus with 26 samples.

Results

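The collagen genes were followed in the lacrimal gland of a mouse model of Sjögren's syndrome over 5 ages. Every gene on the array whose symbol begins with Col, a number, the letter a and a further number was taken as a member. This gave 42 collagen genes among 18193 genes named by 1 probe set or more, where a probe set is the group of short array oligos that reads 1 transcript. Each gene was represented by a single probe set, the one with the highest mean over all 26 arrays among those that name only that gene, and 27 of the 42 genes had more than 1 probe set to choose from. Of the gland's own markers, all 9 lacrimal acinar products measured, among them lactotransferrin and prolactin-induced protein, lay far above background at each age, while the 4 skeletal muscle and the 4 cartilage and bone markers that passed the filter described below lay near background at each age.

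All animals were males of the strain C57BL/6.NOD-Aec1Aec2. In this strain the Idd3 region of chromosome 3 (Aec1) and the Idd5 region of chromosome 1 (Aec2) of the NOD mouse were bred into C57BL/6, and the mice develop a disease like Sjögren's syndrome, in which leukocytes enter the tear and salivary glands and secretion falls. There were 4 arrays at 4 weeks (before disease), 6 at 8 weeks (an early stage before clinical signs), 6 at 12 weeks (when leukocytes first enter the gland), 5 at 16 weeks (early clinical autoimmunity) and 5 at 20 weeks (onset of clinical disease with loss of secretion). The labels call the arrays of an age biological replicates without saying whether each held 1 animal or a pool, so the p-values below measure the spread between these arrays. No other strain was analysed here, so ageing and disease stage cannot be told apart.

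Collagens are secreted proteins whose chains wind around each other into a helix. Fibrillar collagens (types I, II, III, V, XI, XXIV and XXVII) form the load-bearing fibrils of connective tissue and are made mainly by fibroblasts. Type IV forms the sheet of the basement membrane under acini, ducts and vessels, type VII forms the anchoring fibrils that tie an epithelial basement membrane to the stroma below, and the remaining types form beaded filaments, decorate fibrils or span the plasma membrane.

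All values are log2 expression values on the scale the authors deposited, so a difference of 1 is a 2-fold change, and levels are compared between ages for a gene and never between genes. A gene was kept for testing if it lay above the median of its array on at least 4 of the 26 arrays, which left 12376 genes and 37 of the 42 collagen genes. A mean below 4.04, which is 1 log2 unit above the median of the array medians, is called near background, and 19 collagen genes had a mean above that at 1 age or more. Where a mean of a comparison is near background, the array can understate the change. Its size is then called a lower bound, which leaves sampling error aside. Tests are limma's moderated tests in 1 fit of all 26 arrays, with Benjamini-Hochberg adjustment over the 12376 genes, and rose or fell is written where the adjusted p was below 0.05. In a gland extract, fewer cells of a type and less RNA per cell cannot be told apart.

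By class, 10 of the 11 fibrillar genes were kept and 6 of them lay above background at some age (Col1a1, Col1a2, Col3a1, Col5a1, Col5a2 and Col5a3). Of the 6 type IV genes, 5 were kept and 3 lay above background (Col4a1, Col4a2 and Col4a5). The only anchoring fibril gene, Col7a1, was kept and lay above background. Of the 24 others, 21 were kept and 9 lay above background, namely Col6a1, Col6a2, Col6a3 and Col6a4 of the type VI beaded filament, Col9a1, Col9a3, Col14a1 and Col16a1 of the collagens that attach to fibrils, and Col15a1, a multiplexin of the basement membrane zone. The 5 genes that failed the filter were Col10a1, Col11a2, Col19a1, Col4a3 and Col6a5. The 18 kept genes that stayed near background at each age had age means between 2.63 and 3.90, and they included Col2a1 of cartilage, Col17a1 of the hemidesmosome, Col18a1 and all 4 transmembrane collagens.

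Across the 5 ages, 3 of the 37 collagen genes changed by the F test, where 14.9% of all genes tested did. These were Col7a1 (adjusted p = 0.000471), Col1a1 (adjusted p = 0.00165) and Col1a2 (adjusted p = 0.00447). At an unadjusted p below 0.05 there were 14. The share of collagen genes called, 8.11%, lay below the share over all genes, and over the 19 above background it was 15.8% against 21.4% of all 7948 genes above background.

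The 3 sequences below are the 250 bases before the annotated start of Col1a2 and Col7a1, which changed, and of Col3a1, the other main chain of the stroma. Col1a1 is named only. They come from RefSeq on build GRCm38.p6, all on the plus strand, at chr6:4505368-4505617 for Col1a2, chr1:45311288-45311537 for Col3a1 and chr9:108953336-108953585 for Col7a1. Capitals mark every match, on either strand, to 4 short motifs, with no overlap between matches. The TATA box was searched for by its letters TATAAA. The CCAAT box was searched for by its name's own letters. The GC box, a common motif of promoters without a TATA box, was searched for as GGGCGG. For the Smad box, which Smad proteins of the TGF-beta route bind, the search used the letters CAGACA.
Col1a2: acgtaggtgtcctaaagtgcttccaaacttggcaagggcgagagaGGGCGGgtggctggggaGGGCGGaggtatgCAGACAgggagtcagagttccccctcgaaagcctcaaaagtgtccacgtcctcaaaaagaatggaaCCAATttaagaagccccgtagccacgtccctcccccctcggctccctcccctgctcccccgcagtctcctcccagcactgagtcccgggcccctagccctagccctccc
Col3a1: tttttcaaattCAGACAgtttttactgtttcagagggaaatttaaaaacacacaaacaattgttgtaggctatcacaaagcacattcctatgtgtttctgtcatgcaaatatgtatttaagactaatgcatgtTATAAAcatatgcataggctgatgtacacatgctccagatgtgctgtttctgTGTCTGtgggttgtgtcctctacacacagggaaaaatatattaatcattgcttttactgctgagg
Col7a1: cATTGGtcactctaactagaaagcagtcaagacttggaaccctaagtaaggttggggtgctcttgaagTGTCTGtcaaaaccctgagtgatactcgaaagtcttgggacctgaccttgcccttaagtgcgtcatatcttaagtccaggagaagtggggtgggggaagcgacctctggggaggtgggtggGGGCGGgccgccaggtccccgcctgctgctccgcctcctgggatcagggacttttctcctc

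The windows of Col1a2 and Col3a1 differ in make-up, with 62.0% of bases G or C in Col1a2 and 35.2% in Col3a1, and 56.4% in Col7a1. The window of Col1a2 holds the CCAAT letters 109 to 105 bases before the start, 2 matches to the GC box and 1 to the Smad box. That of Col3a1 holds TATAAA 117 to 112 bases before the start and 2 matches to the Smad box, and that of Col7a1 holds 1 match each to the CCAAT box, the GC box and the Smad box. A window was found for 33 of the 42 collagen genes, of which 20 held the GC box letters (32.7% of all 32851 windows of that length did), 13 the CCAAT letters (33.8% of all), 8 the Smad box letters (17.1% of all) and 5 the TATA box letters (12.4% of all). Col7a1 and Col1a2, whose courses over the ages differed, held matches to the same 3 motifs. A match of letters is a description and shows no binding.

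The largest change in the family was that of Col7a1, the type VII chain of anchoring fibrils. Its log2 values were 6.62, 6.07, 4.41 and 6.81 on the arrays of replicates 1 to 4 at 4 weeks. At 8 weeks the lowest was 5.47, the median 6.85 and the highest 9.01, and at 12 weeks the lowest was 7.56, the median 8.25 and the highest 8.73. Col7a1 then stood at 4.29, 5.40, 4.57, 5.32 and 4.67 at 16 weeks and at 4.41, 3.99, 3.78, 4.54 and 5.97 at 20 weeks. All 6 arrays at 12 weeks thus lay above every array at 4, 16 and 20 weeks, while the 8-week arrays overlapped both 4 and 12 weeks and included the highest of all 26 arrays.

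From 12 to 16 weeks Col7a1 fell by 3.37 ± 0.52 on the log2 scale (SE; 10.4-fold; limma, adjusted p = 0.00514), the only collagen gene of 37 to change in this comparison, in which 2.98% of all genes were called. It was also lower at 20 than at 8 weeks, by -2.44 ± 0.52 (adjusted p = 0.00402), although the groups overlapped. The rise to 12 weeks was called only over the longer interval: the difference was 2.25 ± 0.55 between 12 and 4 weeks (adjusted p = 0.0292), 1.00 ± 0.55 between 8 and 4 weeks (adjusted p = 0.402) and 1.25 ± 0.49 between 12 and 8 weeks (adjusted p = 0.805). At 20 against 4 weeks the difference of -1.44 ± 0.57 was not called (adjusted p = 0.223). The falls kept their calls in each of 14 alternative settings, between -3.62 and -2.82 for 16 against 12 weeks, and with any 1 array left out. The difference of 12 from 4 weeks lost its call in 3 of the 14 settings, after quantile normalization (1.83, adjusted p = 0.0541) and with the array SD (1.81, adjusted p = 0.0851) or the adipocyte mean (2.14, adjusted p = 0.108) as covariate. It was also lost without replicate 2 or 3 at 4 weeks, or replicate 3, 4 or 5 at 12 weeks, where it lay between 1.73 (adjusted p = 0.164, without replicate 3 at 4 weeks) and 2.28.

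Products of secretory cells also had their highest means at 12 weeks and lower ones at 16 weeks. So did other lists, among them genes of collagen processing (6.98 and 6.29), TGF-beta signalling (5.93 and 5.57) and the cell cycle (5.46 and 4.38). Of all 7948 genes above background 5349 were lower at 16 than at 12 weeks, and of the 369 genes called among all 12376 tested 325 fell. The mean of 4 salivary gland products was 11.8 ± 1.16 (SD, n = 6) at 12 weeks and 9.02 ± 1.83 (n = 5) at 16 weeks, with summed levels of 42.6 to 55.0 and 25.9 to 46.4. The mean of the 9 lacrimal acinar products was 13.6 ± 0.288 and 12.0 ± 1.52, with summed levels of 120 to 126 and 84.0 to 117. Here and below, a summed level is the sum of the log2 values of a list on 1 array, which restates the mean. None of the 4 salivary and none of the 9 acinar genes was called in that comparison by limma, and 0 and 2 of them had an unadjusted p below 0.05. Of the 4 keratinised skin markers, 2 (Flg and Dsg1a) were near background at each age, and their mean was 4.69 ± 0.181 at 12 and 4.45 ± 0.39 at 16 weeks, with summed levels of 17.8 to 19.8 and 15.2 to 19.1. The part of these lists in the course of Col7a1 was not tested.

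**Figure D1:**
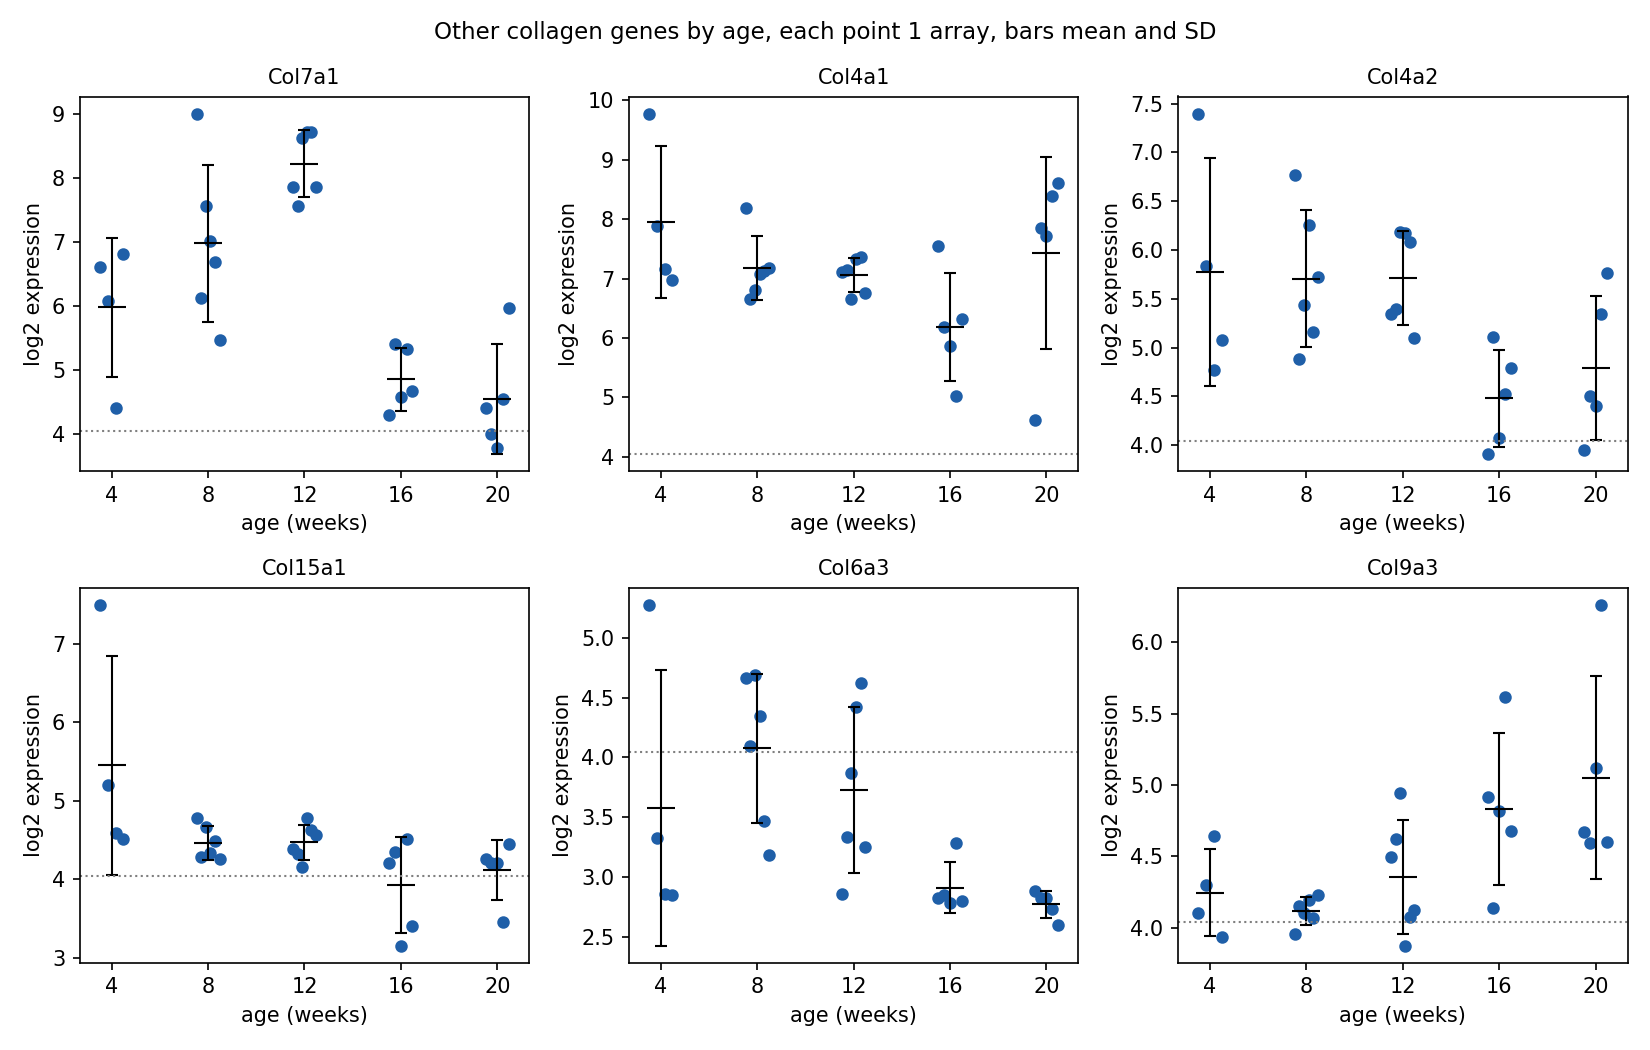
Log2 expression of Col7a1, Col4a1, Col4a2, Col15a1, Col6a3 and Col9a3 on each array (points) by age in weeks, with the mean and SD (bars) and the near-background level of 4.04 (dotted line). The 6 arrays for Col7a1 at 12 weeks lie between 7.56 and 8.73 and the 5 at 16 weeks between 4.29 and 5.40, and 4 weeks replicate 1 is the highest point of its age in 4 of the 6 panels.

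Type I collagen, the main fibril of the stroma, is built from the products of Col1a1 and Col1a2. Col1a1 stood at 6.77, 5.94, 5.38 and 5.99 on the 4 arrays at 4 weeks. Its lowest, median and highest values were 4.92, 5.06 and 5.35 at 8 weeks and 4.50, 4.88 and 5.55 at 12 weeks. At 16 weeks the 5 arrays gave 4.63, 4.62, 4.19, 4.78 and 3.98, and at 20 weeks 5.15, 4.75, 4.82, 5.24 and 4.85. Every array at 8, 16 and 20 weeks therefore lay below every array at 4 weeks, while at 12 weeks 1 array reached into the range of 4 weeks.

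Col1a1 fell from 4 to 8 weeks by 0.93 ± 0.22 (1.91-fold, adjusted p = 0.0324), as the single collagen gene called in a comparison in which 1.36% of all genes were called and 0.218% fell. It was also the single collagen gene called at 20 against 4 weeks (-1.06 ± 0.23, adjusted p = 0.016), where 2.21% of all genes were called. The difference was -1.05 ± 0.22 at 12 against 4 weeks (adjusted p = 0.00919) and -1.58 ± 0.23 at 16 against 4 weeks (adjusted p = 0.000453), in comparisons with 2.71% and 1.78% of all genes called. These differences share the 4 arrays of 4 weeks and are not separate evidence. The call for 8 weeks was lost without replicate 1, 2 or 4 at 4 weeks or replicate 2, 3, 4 or 5 at 8 weeks (adjusted p up to 0.0978), and that for 20 weeks without replicate 1 or 4 at 4 weeks (adjusted p = 0.056 and 0.0529) and after quantile normalization (-0.80, adjusted p = 0.111). Median centring ended the call for 8 weeks (-0.86, adjusted p = 0.0648), and fits of only the 2 ages compared ended those for 8, 12 and 20 weeks (adjusted p = 0.0825, 0.0626 and 0.286). The call for 16 weeks held with any 1 array left out (-1.80 to -1.33) and in all 14 alternative settings.

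Col1a2 followed a similar course down to 16 weeks. Its values were 8.70, 7.99, 7.39 and 7.71 at 4 weeks, with a lowest, median and highest of 6.58, 7.33 and 7.92 at 8 weeks and 6.61, 6.86 and 7.60 at 12 weeks. At 16 weeks it stood at 6.22, 6.01, 5.05, 5.64 and 5.79, below every array of the 3 earlier ages. The 20-week arrays, at 5.32, 6.63, 6.73, 7.97 and 7.27, spanned the range from 16 back to 4 weeks.

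Between 4 and 16 weeks Col1a2 fell by 2.20 ± 0.38 (4.61-fold, adjusted p = 0.00272), a call that held in all 14 alternative settings and with any 1 array left out (-2.39 to -1.95). The difference from 12 to 16 weeks, -1.19 ± 0.34, missed the threshold (adjusted p = 0.0589) although all 5 later arrays were lower. It passed without replicate 1 at 12 weeks (-1.25, adjusted p = 0.0418), without replicate 1 at 20 weeks (adjusted p = 0.017) or without replicate 4 at 20 weeks (adjusted p = 0.0426). The differences of 1.04 ± 0.36 from 16 to 20 weeks (adjusted p = 0.515) and of -1.16 ± 0.38 from 4 to 20 weeks (adjusted p = 0.121) were not called.

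Second probe sets were available for both type I genes and gave larger differences from 4 weeks at each later age. From 12 to 16 weeks they gave smaller ones, without a call. These were -0.07 against -0.53 for Col1a1 and -0.61 against -1.19 for Col1a2. At 12 and 16 weeks the second probe set had means of 4.34 and 4.27 for Col1a1, and of 4.91 and 4.30 for Col1a2. That of Col1a1 thus began just above the near-background level and had little room to show a fall. For Col1a2 the later mean was just above it. In a fit of all 20100 probe sets kept, the second probe set of Col1a1 read 8.18, 6.51, 6.91 and 4.55 at 4 weeks and between 3.57 and 5.56 on the 5 arrays at 20 weeks. It differed by -1.94 ± 0.44 at 8 against 4 weeks (adjusted p = 0.0326) and by -2.13 ± 0.46 at 20 against 4 weeks (adjusted p = 0.0136), and the former was lost without replicate 1, 2 or 3 at 4 weeks or replicate 2, 3, 4 or 5 at 8 weeks. The second probe set of Col1a2 read 8.66, 7.10, 7.28 and 6.09 at 4 weeks and 4.11, 4.61, 4.18, 3.97 and 4.25 at 20 weeks, with no overlap.

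For Col1a2 the probe sets gave different readings of 20 weeks. The second one fell by 3.06 ± 0.39 from 4 to 20 weeks (adjusted p = 0.000133) and by 1.60 ± 0.36 from 8 to 20 weeks (adjusted p = 0.00491), calls that held with any 1 array left out. Between 16 and 20 weeks it differed by -0.07 ± 0.37 (adjusted p = 0.964), where the probe set used for the gene differed by 1.04. Both probe sets were called at 16 against 4 weeks, the second by -2.99 ± 0.39 (adjusted p = 0.000219), and another probe set of Col1a2 lay near background throughout. The second one had means of 4.30 at 16 weeks and 4.22 at 20 weeks, so close to the near-background level that a change could be understated. It thus cannot settle the order of 16 and 20 weeks for Col1a2, which the probe set used gave without a call.

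**Figure D2:**
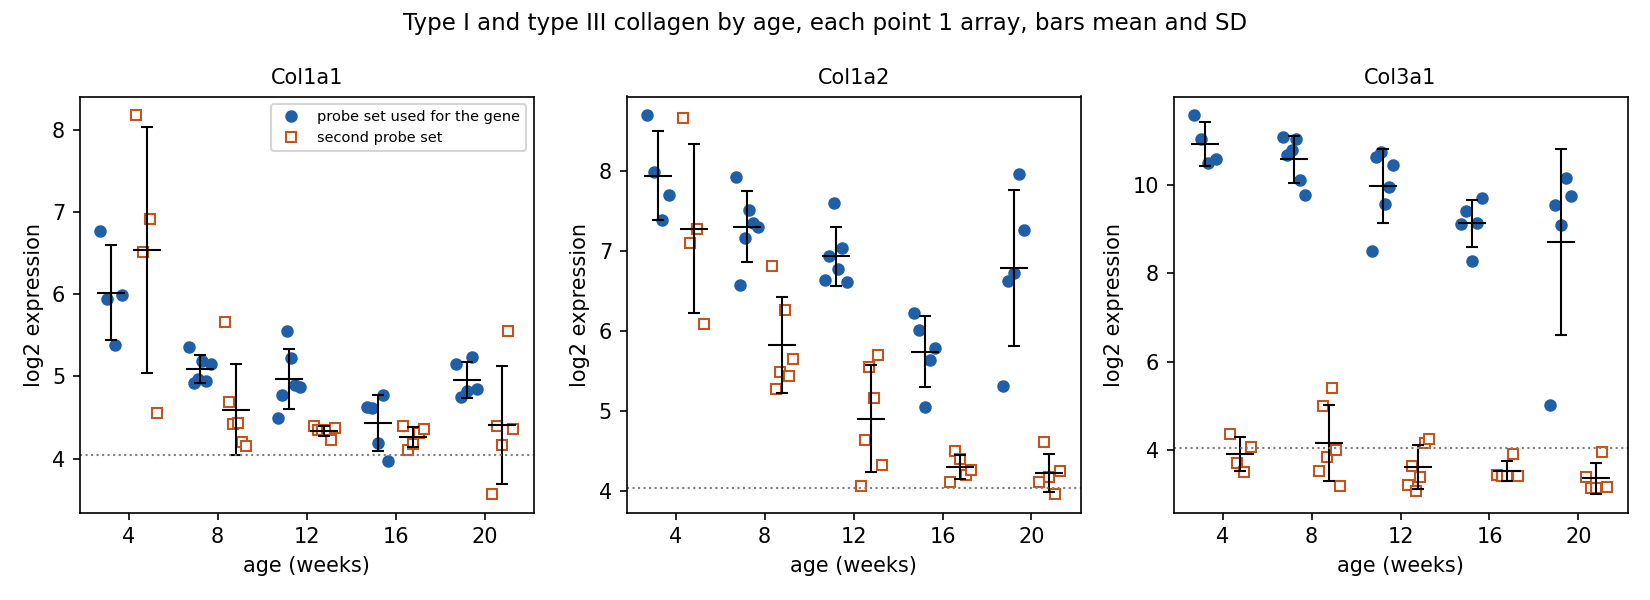
Log2 expression of Col1a1, Col1a2 and Col3a1 on each array by age in weeks, for the probe set used for the gene (filled circles) and the second probe set (open squares), with mean and SD (bars) and the near-background level of 4.04 (dotted line). For Col1a1 and Col1a2 the 4-week arrays have the highest mean for both probe sets, and 1 array of 20 weeks stands at 5.02 for Col3a1.

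Type III collagen, made by Col3a1, forms fine fibrils together with type I. Col3a1 read 11.57, 11.03, 10.50 and 10.59 at 4 weeks, and its lowest, median and highest values were 9.76, 10.73 and 11.08 at 8 weeks and 8.51, 10.20 and 10.74 at 12 weeks. It read 9.12, 9.40, 8.29, 9.13 and 9.70 at 16 weeks and 5.02, 9.54, 9.10, 10.16 and 9.73 at 20 weeks. All arrays at 16 and at 20 weeks lay below all arrays at 4 weeks, and 1 array of 20 weeks stood far below the other 4.

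Col3a1 was called in a single comparison, 20 against 8 weeks, at -1.86 ± 0.63 (3.64-fold, adjusted p = 0.0367). Without replicate 1 at 20 weeks this became -0.94 (adjusted p = 0.0933), and it also lost its call without replicate 1, 2, 3 or 4 at 8 weeks (adjusted p between 0.0563 and 0.0769). It held in 8 of 14 alternative settings and was lost, among others, after quantile normalization (-1.35, adjusted p = 0.0548), in the fit of only the 2 ages (adjusted p = 0.136) and with the array SD (-0.75, adjusted p = 0.328) or the actin difference (-1.46, adjusted p = 0.177) as covariate. The differences of -1.79 ± 0.70 at 16 against 4 weeks (adjusted p = 0.233) and -2.21 ± 0.70 at 20 against 4 weeks (adjusted p = 0.103) were not called with all arrays, and the former was called without replicate 1 at 20 weeks (-1.79, adjusted p = 0.00838). The second probe set of Col3a1 had a mean above background at 8 weeks only, of 4.16.

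The type V genes, whose products seed and limit the growth of type I fibrils, were not called in any comparison of ages by limma, although Col5a1 had an unadjusted p below 0.05 at 8, 12 and 20 against 4 weeks and Col5a2 at 16 against 4 weeks. Col5a1 had age means of 5.14, 4.45, 4.16, 4.49 and 4.25, and Col5a2 of 6.49, 5.83, 5.82, 5.64 and 6.11, each with its highest value of all 26 arrays, 6.07 and 8.00, on replicate 1 at 4 weeks. Col5a3 varied little, with age means between 4.18 and 4.44. A second probe set of Col5a1, near background at each age with means from 2.82 to 3.29, was called at 8 against 4 weeks by -0.47 (adjusted p = 0.0132).

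Of the type IV genes, the partners Col4a1 and Col4a2 build the network found in nearly every basement membrane. Col4a1 read 9.78, 7.89, 7.17 and 6.97 at 4 weeks, with a median of 7.10 at 8 weeks and of 7.13 at 12 weeks, then 7.54, 6.19, 5.86, 5.02 and 6.32 at 16 weeks and 4.62, 7.86, 7.72, 8.39 and 8.60 at 20 weeks. Col4a2 read 7.40, 5.84, 4.77 and 5.08 at 4 weeks, with medians of 5.58 and 5.74 at 8 and 12 weeks, then 3.91, 5.11, 4.07, 4.53 and 4.79 at 16 weeks and 3.95, 4.50, 4.40, 5.34 and 5.76 at 20 weeks. For both genes replicate 1 was the highest array at 4 weeks and the lowest at 20 weeks, and neighbouring ages overlapped. For each gene 4 of the 5 arrays at 16 weeks lay below every array at 12 weeks, and 4 of the 5 arrays of Col4a1 at 20 weeks lay above every array at 16 weeks.

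None of the 5 type IV genes was called in any comparison by limma, and 1 (Col4a2) had an unadjusted p below 0.05 in the F test. The largest differences were -1.23 ± 0.42 for Col4a2 from 12 to 16 weeks (adjusted p = 0.103), -1.29 ± 0.47 for Col4a2 from 4 to 16 weeks (adjusted p = 0.186), 1.25 ± 0.60 for Col4a1 from 16 to 20 weeks (adjusted p = 0.605) and -1.76 ± 0.64 for Col4a1 from 4 to 16 weeks (adjusted p = 0.186), and the 95% interval of the last ran from -3.09 to -0.44. Without replicate 1 at 20 weeks, an array that enters this difference only through the pooled spread, it was called (adjusted p = 0.0303). A second probe set of Col4a1 moved less, with age means of 7.42, 7.28, 7.06, 6.86 and 6.91. Col4a5 had means between 3.84 and 4.29, and Col4a4 and Col4a6 were near background.

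The type VI genes make the beaded filaments around cells and basement membranes. Col6a3 was the only one called. It read 5.28, 3.33, 2.86 and 2.85 at 4 weeks, had a lowest, median and highest of 3.19, 4.22 and 4.69 at 8 weeks and of 2.86, 3.60 and 4.62 at 12 weeks, and read 2.82, 2.85, 2.78, 3.29 and 2.80 at 16 weeks and 2.88, 2.82, 2.82, 2.73 and 2.59 at 20 weeks. Every array at 20 weeks lay below every array at 8 weeks.

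From 8 to 20 weeks Col6a3 fell by 1.30 ± 0.38 (adjusted p = 0.0209). Its mean at 20 weeks was near background, so this size is a lower bound. Only its mean at 8 weeks, 4.07, lay above the near-background level, and by little. Its other age means lay between 2.77 and 3.73. The comparison called thus used the age by which Col6a3 was counted above background. The call was lost without replicate 1 at 8 weeks (-1.19, adjusted p = 0.0533) and with the array SD as covariate (-1.08, adjusted p = 0.104). Col6a1 and Col6a2 had means from 4.55 to 5.35 and from 6.22 to 6.69, and Col6a4 from 3.86 to 4.17. The probe set of Col6a2 lay between 6.21 and 6.24 on all 6 arrays at 8 weeks (SD 0.0128). Its medians at 12, 16 and 20 weeks were 6.23, 6.22 and 6.23, although the 12-week arrays ranged from 5.93 to 6.73. Whether this recurring value is the floor of the probe set was not tested. Col6a2 was still counted above background by its level, in the direction counts and in the pair with Col6a1, so its part in them is uncertain.

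Among the collagens that attach to fibrils, Col9a3, a chain of the cartilage collagen type IX, rose. Its lowest, median and highest values at 8 weeks were 3.96, 4.13 and 4.23, against 4.67, 4.59, 5.12, 6.26 and 4.60 at 20 weeks, so all later arrays were higher. The difference was 0.93 ± 0.27 (1.91-fold, adjusted p = 0.0202), and without replicate 4 at 20 weeks it was 0.63 (adjusted p = 0.0612). The call was also lost in the fit of only the 2 ages (adjusted p = 0.0602) and with the array SD (0.77, adjusted p = 0.102) or the actin difference (0.89, adjusted p = 0.0811) as covariate. Its partner Col9a1 differed by 0.62 without a call, and Col9a2 was near background, as were the cartilage markers Comp and Matn3. Col14a1 and Col16a1 had age means of 4.02 to 4.36 and 6.47 to 6.88.

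Col15a1, which links basement membranes to the fibrils beneath, read 7.50, 5.20, 4.59 and 4.51 at 4 weeks, with medians of 4.41 and 4.47 at 8 and 12 weeks, then 4.21, 4.35, 3.15, 4.51 and 3.40 at 16 weeks and 4.26, 4.20, 4.21, 3.45 and 4.45 at 20 weeks. The 20-week arrays were all below the 4-week arrays, but the difference of -1.34 ± 0.41 was not called (adjusted p = 0.0936). With 1 array left out at a time it ranged from -1.65 to -0.65, the latter without replicate 1 at 4 weeks, and was called without replicate 3 at 4 weeks (-1.62, adjusted p = 0.0401).

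In the whole family, 7 of the 37 genes were called at 20 against 8 weeks (18.9%), where 25.2% of all genes were. Of these, Col7a1, Col3a1 and Col6a3 fell and Col9a3, Col24a1, Col11a1 and Col25a1 rose, while 10.6% of all genes rose and 14.7% fell. That split depended on the scaling, since higher genes made up 41.9% of all genes called as deposited, 54.4% after quantile normalization and 25.2% after centring each array on its median. No collagen gene was called at 12 against 8 weeks or at 20 against 16 weeks by limma, where 0.0162% of all genes were called in each, and at an unadjusted p below 0.05 there were 1 and 4.

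The small rises of Col24a1 (0.35), Col11a1 (0.21) and Col25a1 (0.20) were measured on genes near background. Between 8 and 20 weeks 17 of the 18 collagen genes near background had a positive difference, with a median of 0.15, and over all 4428 genes near background 3508 had a positive difference, with a median of 0.15, and 825 of them rose. Col24a1 lost its call without replicate 1 or 4 at 20 weeks (adjusted p = 0.0562 and 0.0533), Col11a1 kept it in 9 and Col25a1 in 5 of the 26 fits with 1 array left out. The spread of values over all probe sets of an array was narrower at 20 weeks (SD 1.87 ± 0.296, n = 5) than at 8 weeks (2.12 ± 0.11, n = 6). At 20 weeks replicate 1 had the narrowest, at 1.36, beside 1.93 to 2.12 on the other arrays. The part of the spread in this shift was not tested. With that spread as a covariate Col7a1 was the only collagen gene of the 7 still called at 20 against 8 weeks (1 of 37).

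**Figure D3:**
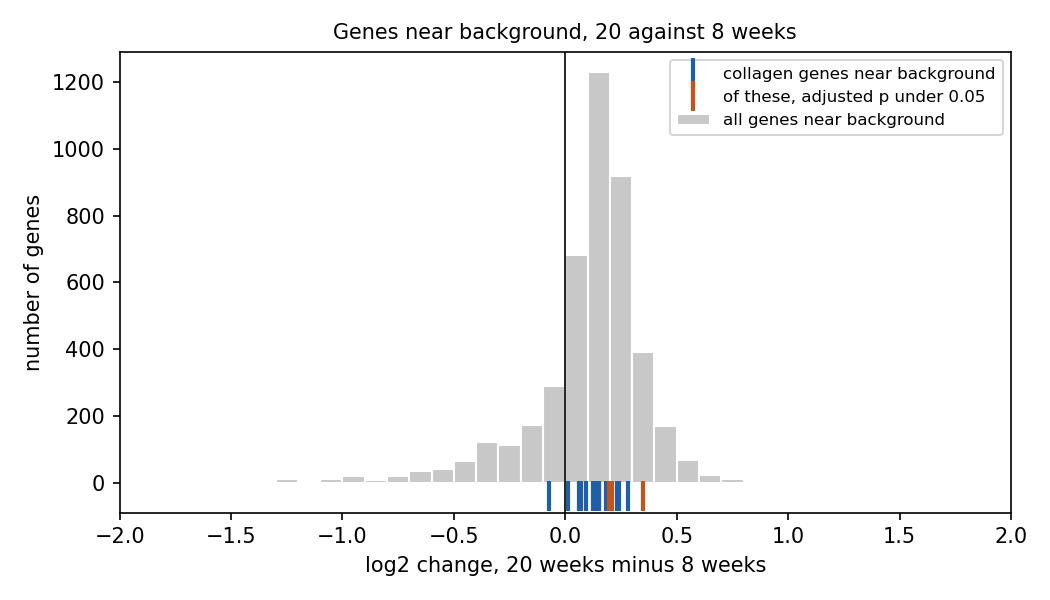
Histogram of the log2 difference between 20 and 8 weeks over the 4428 genes near background (grey bars, number of genes), with the 18 collagen genes near background as ticks and those with an adjusted p under 0.05 in orange. Both the bars and the ticks are centred to the right of 0, at a median of 0.15.

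Most collagen genes above background had lower means after 4 weeks, whether called or not. At 8 against 4 weeks 17 of the 19 collagen genes above background had a negative difference, with a median of -0.34. Among all 7948 genes above background 2435 had a negative difference, with a median of 0.25. At 20 against 4 weeks it was again 17 of 19, with a median of -0.42, beside 4606 of the 7948 genes and a median of -0.10. At 16 against 4 weeks it was 18 of 19, with a median of -0.67, beside 3813 of the 7948 genes and a median of 0.02. These counts share the arrays of 4 weeks. Under quantile normalization and median centring the count at 8 against 4 weeks was 17 and 16 of 19, and at 20 against 4 weeks 16 and 17 of 19.

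Replicate 1 at 4 weeks was the highest array of its age for 14 of the 19 genes. Without it, 14 of 19 differences were negative at 8 against 4 weeks, with a median of -0.15, 12 of 19 at 20 against 4 weeks, with a median of -0.11, and 17 of 19 at 16 against 4 weeks, with a median of -0.34. The counts over all genes above background were not taken without this array. The same array also had the highest mean of its age over the 6 fibroblast markers measured (4.82, beside 3.59 to 3.85 on the other 3), the 4 adipocyte markers (5.03, beside 3.84 to 3.93) and the 4 salivary gland products (13.1, beside 6.20 to 11.5), and the largest 3' minus 5' difference of the actin control probe sets, a measure of RNA breakdown (4.10, beside 1.87 to 2.87).

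**Figure D4:**
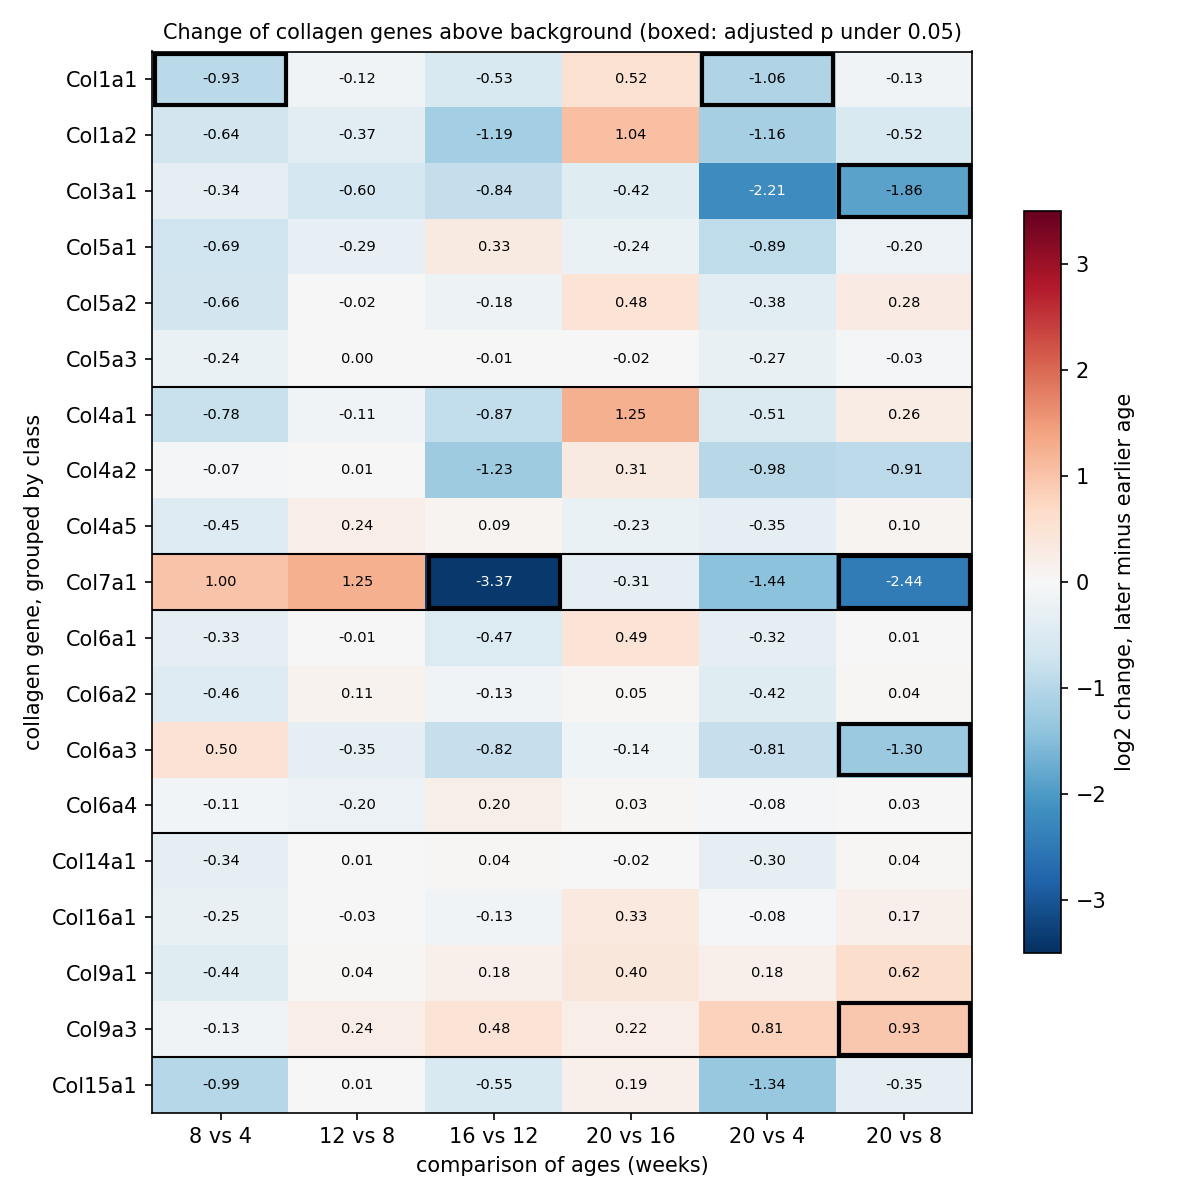
Log2 difference of the 19 collagen genes above background (rows, grouped by class) in 6 comparisons of ages in weeks (columns), with blue for lower and red for higher at the later age and boxes where the adjusted p was under 0.05. Most cells in the columns 8 against 4 and 20 against 4 weeks are blue (17 of 19 in each), and the darkest cell is the fall of Col7a1 at 16 against 12 weeks, by 3.37.

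Pairs of chains that assemble together were compared over arrays of the same age. As comparison pairs, Col1a1 was also set against Col3a1, Col4a1, Col6a1 and Serpinh1, the last of which is not a collagen. After each age mean was subtracted, Col4a1 and Col4a2 correlated over the 26 arrays with r = 0.62 (rho = 0.55, permutation of arrays within ages, adjusted p = 0.0237 over 8 pairs, p = 0.00296 unadjusted and 0.0085 for rho), and Col1a1 and Col1a2 with r = 0.49 (rho = 0.55, adjusted p = 0.0354, p = 0.00884 unadjusted and 0.00977 for rho). Without the 2 arrays farthest from the median, of which replicate 1 at 4 weeks was 1 in both cases, r fell to 0.38 and 0.30, with an adjusted p of 0.428 for each by the same permutation test, so the relations by r rested on those arrays, while rho was 0.47 and 0.46 (permutation p = 0.0354 and 0.0439, unadjusted). Without the 2 arrays that stood apart from all others r was 0.68 and 0.76 (permutation, adjusted p = 0.0309 and 0.00072), and after quantile normalization 0.55 and 0.40 (permutation, adjusted p = 0.0651 and 0.141). The other 6 pairs, among them Col5a1 with Col5a2 (r = 0.41), Col6a1 with Col6a2 (r = 0.55) and Col1a1 with Col3a1 (r = 0.14), did not pass in the permutation test, with adjusted p between 0.0989 and 0.423. All pairs share arrays, and with them array quality and cell content.

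Genes that process, bind or degrade collagen were read against the 14.9% of all genes that changed by the F test. Of 12 genes kept that modify or fold collagen chains in the endoplasmic reticulum, 3 changed over the 5 ages, namely Crtap and P3h4, which serve the hydroxylation of collagen, and Colgalt1, which adds galactose to it. Crtap had means of 5.42 at 12 and 4.02 at 16 weeks and fell by 1.40 ± 0.37 (adjusted p = 0.046), a lower bound since the later mean was near background. P3h4 fell by 1.41 ± 0.35 from 8 to 20 weeks (adjusted p = 0.00967). None of 4 genes of propeptide removal and cross-linking, 10 basement membrane partners and 6 receptors changed by limma's F test, and 1, 2 and 2 of them had an unadjusted p below 0.05.

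Among 14 partners of the fibril, fibronectin (Fn1) was the only gene called over the 5 ages. Its means were 4.53, 6.44, 5.94, 4.48 and 5.10, so it rose from 4 to 8 weeks by 1.91 ± 0.37 (adjusted p = 0.00823), while Col1a1 fell, and fell from 12 to 16 weeks by 1.45 ± 0.35 (adjusted p = 0.03). Periostin (Postn) fell by 1.12 ± 0.40 from 8 to 20 weeks (adjusted p = 0.0468).

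Of 11 genes of collagen breakdown, 3 changed by the F test, beside 14.9% of all genes tested. Timp3, an inhibitor of matrix metalloproteinases, had means of 5.63, 4.74, 3.31, 4.04 and 3.54 and fell by 2.09 ± 0.38 from 4 to 20 weeks (adjusted p = 0.00509), a lower bound since it ended near background. Fap, a protease of activated fibroblasts, rose from a near-background 3.40 at 4 weeks to 6.92 at 8 weeks, by 3.52 ± 0.60 (adjusted p = 0.00278), again a lower bound, and fell by 1.74 ± 0.56 from 8 to 20 weeks (adjusted p = 0.0316). Mmp3, or stromelysin, was higher at 12 than at 4 weeks by 2.16 ± 0.51 (adjusted p = 0.0244), a lower bound from a near-background mean at 4 weeks.

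TGF-beta is the best known inducer of type I collagen, and 5 of 13 genes of its route to the matrix changed over the 5 ages, beside 14.9% of all genes tested and 21.4% of those above background. Smad2, a signal transducer of TGF-beta receptors, fell by 1.61 ± 0.38 from 4 to 20 weeks (adjusted p = 0.0276) and by 2.01 ± 0.34 from 8 to 20 weeks (adjusted p = 0.000926), lower bounds since its mean of 3.47 at 20 weeks was near background. Ccn2, a target of the route, had means of 3.60, 5.30, 4.17, 4.68 and 3.84 and rose by 1.70 ± 0.41 from 4 to 8 weeks (adjusted p = 0.0392), again a lower bound. Tgfb1 and Ltbp1 were near background at each age. Of the 13 genes, 1 rose and 1 fell at 20 against 4 weeks, where 2.21% of all genes were called, and 9 had a positive difference. At 20 against 8 weeks 2 rose and 3 fell, where 25.2% of all genes were called, and 4 had a positive difference.

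Markers of other cell types moved with age as well. Of 6 fibroblast markers kept, 1 changed over the 5 ages (S100a4, which leukocytes also express), and 2 (Pi16 and Cd34) were near background throughout. The mean over the 6 was 3.96, 4.26, 4.25, 3.90 and 4.32 at the 5 ages, with summed levels of 21.5 to 28.9 at 4 weeks and 23.5 to 27.7 at 20 weeks. It was lowest at 16 weeks, when Col1a1 and Col1a2 were lowest by the probe sets used, and next lowest at 4 weeks, when both were highest. All 6 markers had a lower mean at 16 than at 12 weeks. So did 6603 of all 12376 genes tested and 5349 of the 7948 above background. Of 8 macrophage markers 5 changed over the 5 ages (14.9% of all genes did), and their mean went from 5.44 at 4 weeks to 7.84 at 8 weeks (summed levels of 40.3 to 46.5 and 58.9 to 66.3). The mean of 4 adipocyte markers was 4.18, 4.65, 5.64, 6.13 and 4.77, with summed levels of 18.1 to 34.1 at 16 weeks and 1 marker, Cidec, near background at each age. None of 6 endothelial, 9 myoepithelial and smooth muscle and 3 Schwann cell markers changed by limma's F test, and 2, 2 and 0 had an unadjusted p below 0.05. The part of cell content in the collagen values was not tested beyond the fit with the adipocyte mean as a covariate, in which Col1a1, Col1a2 and Col7a1 were still called by the F test.

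Array quality differed as well. Replicate 1 at 20 weeks (SD of its values 1.36, median correlation with its age 0.869) and replicate 4 at 16 weeks (1.68 and 0.921) stood apart from the other 24 arrays. The actin 3' minus 5' difference was 2.90, 2.63, 3.69, 4.56 and 3.89 at the 5 ages, highest at 16 weeks, when the type I genes were lowest by the probe sets used. With this difference as a covariate Col1a1 and Col7a1 were still called by the F test and Col1a2 was not (adjusted p = 0.0773), with a range over the age means of 1.76 in place of 2.20. Without the 2 arrays that stood apart 6 collagen genes were called by the F test in place of 3.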

How the data were processed

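RNA from lacrimal glands was measured on 26 Affymetrix arrays of 45101 probe sets at 5 ages. The authors deposited log2 values for every probe set, and the submitters' processing notes name RMA and GCRMA, with no version and without saying which made these values. Array medians lay between 2.94 and 3.22, and no array was rescaled. Of the probe sets, 34958 name 1 gene in the platform annotation, 932 name several and 9211 are not listed, and 64 control probe sets were left out. Grouping by age came from the labels.

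Genes were tested with limma 3.58.1 in R 4.3.3 (lmFit with a mean per age, eBayes), by an F test over the 5 ages and by contrasts between ages, with Benjamini-Hochberg adjustment over 12376 genes and a threshold of 0.05. Pair correlations used 100000 permutations of arrays within ages (Python 3.11.15, numpy 2.4.6, scipy 1.17.1), and figures were drawn with matplotlib 3.10.9. All collagen genes kept could be named, and of each other list up to 4 genes with the smallest F test p. The collagen genes, the lists and the tests were chosen with earlier results of these data known. The contrasts of 12 and 16 against 4 weeks, the test of each probe set on its own and the median of all genes near background were added after the data were seen.

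Replicate numbers recur at every age. Same-numbered arrays had a median correlation of -0.08 in their deviations from the age means (47 pairs, 14 of them over 0.1), so the numbers were not taken as pairs. Tested on simulated data, with 100 genes of 12376 changed 2-fold and 100 changed 4-fold, the fit found 54% and 84% for 20 against 8 weeks and 44% and 83% for 8 against 4 weeks. The number of arrays limits the precision. Alternatives covered scaling, filter, choice of probe set, array weights, replicate block, ages in the fit, arrays left out and covariates.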

Additional observations from a re-analysis of the deposited data

Results flagged for a closer look

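Of 95 groups (19 collagen genes above background at 5 ages), 19 held 1 array that stood far from the others of its age. The rule took the gap to the nearest other array as a share of the range, so a small gap can also be flagged. A chance rate of about 1 in 20 would hold only for independent groups. These groups share arrays, so the count cannot be read against it. By array, 3 of the 19 fell on replicate 3 at 16 weeks and 3 on replicate 1 at 20 weeks, which was also the array farthest from its age over all probe sets.

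At 20 weeks, replicate 1 read 5.02 for Col3a1 (9.10 to 10.16 on the others), 4.62 for Col4a1 (7.72 to 8.60) and 6.49 for Col6a2 (6.17 to 6.23), and replicate 4 read 3.45 for Col15a1 (4.20 to 4.45) and 4.85 for Col5a1 (4.06 to 4.19). At 16 weeks, replicate 3 read 5.27 for Col5a2 (5.67 to 5.76), 3.78 for Col6a1 (4.69 to 4.80) and 6.17 for Col6a2 (6.22 to 6.24), and replicate 4 read 5.81 for Col5a1 (4.01 to 4.39) and 3.29 for Col6a3 (2.78 to 2.85). At 12 weeks, replicate 3 read 6.36 for Col16a1 (6.59 to 6.69) and 6.89 for Col5a2 (5.43 to 5.93), and replicate 5 read 3.38 for Col6a4 (3.82 to 4.07).

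At 8 weeks, replicate 1 read 8.19 for Col4a1 (6.66 to 7.17), and replicate 6 read 4.51 for Col6a4 (3.85 to 4.06). At 4 weeks, replicate 1 read 5.06 for Col5a3 (4.18 to 4.29) and 7.75 for Col6a2 (6.25 to 6.41), and replicate 3 read 4.45 for Col6a4 (4.05 to 4.11) and 4.50 for Col9a1 (3.93 to 4.01).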

How the results depend on the processing

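The number of collagen genes called depended on the setting more than the leading genes did. Over the 5 ages it was 3 as reported, 6 after quantile normalization, 5 with the filter at the 75th percentile, 7 with the mean of probe sets, 22 with array weights (a fit that stopped before it converged), 6 without the 2 arrays that stood apart, 5 with the array SD and 5 with the adipocyte mean as covariate, and 3 to 9 with 1 array left out. At 8 against 4 weeks it was 1, but 0 after median centring, 0 in the fit of only the 2 ages, 14 with array weights, 2 without the arrays that stood apart, 2 with each probe set on its own, and 0 to 2 with 1 array left out. At 12 against 8 weeks it was 0 in each setting and 0 to 0 with 1 array left out. At 16 against 12 weeks it was 1, but 2 with the filter at the 75th percentile, 9 with array weights, 3 in the fit of only the 2 ages, 2 without the arrays that stood apart, 2 with the adipocyte mean, and 1 to 3 with 1 array left out. At 20 against 16 weeks it was 0, but 1 after quantile normalization, 2 with array weights, and 0 to 0 with 1 array left out. At 20 against 4 weeks it was 1, but 2 with the mean of probe sets, 11 with array weights, 0 in the fit of only the 2 ages, 4 with the array SD, 2 with each probe set on its own, and 0 to 2 with 1 array left out. At 20 against 8 weeks it was 7, but 4 after quantile normalization, 4 with the filter at the 75th percentile, 12 with array weights, 2 in the fit of only the 2 ages, 3 without the arrays that stood apart, 1 with the array SD, 2 with the actin difference, and 3 to 8 with 1 array left out. At 12 against 4 weeks it was 2, but 4 with the mean of probe sets, 17 with array weights, 1 in the fit of only the 2 ages, 6 without the arrays that stood apart, 1 with the adipocyte mean, 4 with each probe set on its own, and 1 to 5 with 1 array left out. At 16 against 4 weeks it was 2, but 5 after quantile normalization, 14 with array weights, 5 without the arrays that stood apart, 8 with the array SD, and 2 to 6 with 1 array left out. The causes of these changes were not tested.

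With the replicate number as a block, 0 collagen genes were called at 8 against 4 weeks (Col1a1 -0.88, adjusted p = 0.0798) and 4 at 20 against 8 weeks, where Col3a1 lost its call (-1.90, adjusted p = 0.0545). Same-numbered arrays share only a number here. Of the age-centred pair correlations, 2 passed as reported and 0 without the 2 arrays farthest from the median. That of Col1a1 with Col3a1 turned from 0.14 to -0.0128 without those arrays and to -0.25 after quantile normalization, and that of Col1a1 with Col4a1 from 0.21 to -0.0175 and to -0.33. Without the arrays that stood apart these were 0.49 and 0.58 (permutation, adjusted p = 0.0506 for each). After quantile normalization the pairs Col5a1 with Col5a2 (0.57, permutation, adjusted p = 0.03) and Col1a1 with Serpinh1 (0.76, permutation, adjusted p = 0.0134) passed. Higher genes made up 11.9% of all genes called at 16 against 12 weeks as deposited and 52.9% after quantile normalization, and 79.7% and 65% at 12 against 4 weeks. The deposited values were made before deposit with a normalization that cannot be undone here, and levels near background bound the size of changes.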
